A study of Drosophila melanogaster with 2 samples.

Results

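The cuticle protein genes described here are the 95 protein-coding genes of Drosophila melanogaster whose name begins with Cpr and a digit, with Ccp84, Lcp, Edg78 or Edg84, or is Pcp. They were picked by name from the 13945 protein-coding genes that Ensembl release 115 (BDGP6.54) places on the main chromosomes. Chromatin immunoprecipitation and sequencing (ChIP-seq) had been done on prepupae from a transgenic line in which CG6276 carries enhanced green fluorescent protein (eGFP) at its C-terminus, using anti-GFP. Whole animals of mixed sex were used at an age the labels give as 72 days, and chromatin was sonicated to between 200 and 800 bp. The 2 libraries are biological replicates, numbered 2 and 4, of 1 group, so nothing could be compared between groups, and no control library was analysed here. What drives expression of the fusion, and whether the untagged protein was also present is not stated in the labels or the deposited documentation.

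Cuticle proteins are secreted by the epidermis and pack between chitin fibres to form the insect exoskeleton. Most of the proteins encoded by these genes carry the Rebers-Riddiford consensus, a sequence that binds chitin, and the family sits largely in tandem arrays that arose by gene duplication. Their genes are switched on in waves around each moult under the steroid hormone ecdysone, and at the prepupal stage the nuclear receptor Ftz-f1 activates several pupal cuticle genes, of which Edg84A is a well-studied target. Lcp1 to Lcp4 encode larval cuticle proteins, Pcp a pupal cuticle protein, and Edg78E and Edg84A were first described as ecdysone-dependent genes of imaginal discs.

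Of the 95 genes, 68 fell in 12 clusters of at least 3 members with gaps of at most 20 kb, 2 pairs held 4 more, and 23 stood alone. They are short, with a median length of 875 bp (413 to 18590 bp), against 2166 bp for all protein-coding genes. In 86 of them 1 transcript start is annotated. Another gene encloses 9 of them, such as Pcp inside Gart, a purine synthesis gene, and Cpr64Aa to Cpr64Ad inside CG43367.

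The promoters of 4 members without a nearby peak are shown first, since the TATA box they carry is common in this family: none of the 4 whose promoters are printed had a peak of the list thresholded by the authors within 5 kb. The base sequence TATAAA, the core of the TATA box, was read at the most upstream start of each gene only. It began 36 to 24 bases before that start in 48 of the 95 cuticle protein genes (50.5%), against 935 of all protein-coding genes (6.70%). Promoters are shown on the gene strand from 60 bases before to 30 bases after the start, with TATAAA in capitals, for Pcp (chr2L:7021622-7021712, plus strand), Edg78E (chr3L:21297773-21297863, minus strand) and Ccp84Aa (chr3R:6704024-6704114, plus strand), all in dm6.
Pcp: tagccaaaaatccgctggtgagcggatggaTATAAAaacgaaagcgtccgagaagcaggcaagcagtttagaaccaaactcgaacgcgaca
Edg78E: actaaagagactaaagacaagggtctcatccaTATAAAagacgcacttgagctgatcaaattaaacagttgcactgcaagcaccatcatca
Ccp84Aa: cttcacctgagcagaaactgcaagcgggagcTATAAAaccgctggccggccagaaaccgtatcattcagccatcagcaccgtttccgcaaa
For Edg84A the window reaches from 250 bases before to 50 after the start (chr3R:6684195-6684494, plus strand, dm6). It holds the only exact match among the 95 promoters to CAAGGTCA, a sequence bound by Ftz-f1, and variants of that sequence were not searched. The match lies on the opposite strand, so its reverse complement TGACCTTG is printed in capitals with its first base 100 bases before the start, followed by TATAAA 32 bases before it.
Edg84A: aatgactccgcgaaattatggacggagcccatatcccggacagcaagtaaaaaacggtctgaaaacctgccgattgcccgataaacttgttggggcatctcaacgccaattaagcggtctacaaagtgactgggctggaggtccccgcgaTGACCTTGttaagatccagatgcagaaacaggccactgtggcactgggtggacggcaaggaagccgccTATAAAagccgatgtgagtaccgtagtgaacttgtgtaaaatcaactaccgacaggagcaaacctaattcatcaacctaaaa
CAAGGTCA on either strand was found in 1.05% of the cuticle promoters and 0.495% of all protein-coding promoters of this length. A match describes the letters of the window and is not by itself a bound site.

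The second set of sequences is taken from the peaks themselves, and holds the windows chosen because CAGTG or GAGAG was found in them, which was so in 5 of 20 windows read, so they are not typical of the peaks. Each window reaches 50 bases to each side of a summit, the point within a peak that the peak caller gave, on the plus strand of dm6. Capitals mark CAGTG (reverse complement CACTG) and GAGAG (reverse complement CTCTC). The windows are those of Cpr62Bc (chr3L:1844711-1844811), of the weaker of 2 peaks upstream of Cpr66Cb (chr3L:8334515-8334615), of Cpr97Eb (chr3R:27091660-27091760), of the peak upstream of Cpr100A (chr3R:30864588-30864688) and of the intronic peak of Cpr97Ea (chr3R:27084866-27084966).
Cpr62Bc: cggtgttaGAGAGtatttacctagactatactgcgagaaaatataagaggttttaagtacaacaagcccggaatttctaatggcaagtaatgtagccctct
Cpr66Cb: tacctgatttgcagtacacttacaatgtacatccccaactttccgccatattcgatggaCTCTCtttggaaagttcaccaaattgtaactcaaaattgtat
Cpr97Eb: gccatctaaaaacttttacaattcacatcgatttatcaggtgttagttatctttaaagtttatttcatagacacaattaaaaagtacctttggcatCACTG
Cpr100A: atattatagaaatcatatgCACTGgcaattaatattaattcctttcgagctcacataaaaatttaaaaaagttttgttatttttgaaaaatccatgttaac
Cpr97Ea: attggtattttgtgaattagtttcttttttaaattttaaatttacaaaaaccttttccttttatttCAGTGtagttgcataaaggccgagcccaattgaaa
In windows of 201 bp around the summit, CAGTG on either strand occurred in 10 of the 25 thresholded peaks near cuticle protein genes (40.0%), against 42.6% of all 7326 thresholded peaks and 36.2% of the pooled peaks that overlapped none of them. GAGAG occurred in 5 of the 25 windows, against 28.6% of those of all thresholded peaks, and GATAAG in 4, against 9.51%. The median share of A and T was 66.7% near cuticle protein genes and 64.2% over all thresholded peaks. None of the 25 windows held CAAGGTCA, TATCGATA (the DREF sequence) or AACCGGTT (a Grainy head sequence), which were found in 0.205%, 0.519% and 0.437% of all thresholded windows.

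The data came as 4 peak lists, each with a signal value per peak that the authors' peak caller set and that serves below only to rank peaks within 1 list. Each replicate had 30000 peaks, a pooled list of both had 30000 and is named by the authors as holding background too, and 7326 peaks passed the authors' irreproducible discovery rate (IDR) threshold. The thresholded signal values ran from 139 to 4951 with a median of 252. Sequencing depth is unknown, peaks and genes are not replicates, and the 1 interval given covers counting error only. In whole animals, few cells with strong binding and many cells with weak binding cannot be told apart. No thresholded peak lay within 20 kb of CG6276 itself.

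The share of cuticle protein genes with a thresholded peak nearby was below that of all protein-coding genes, in each of the 3 positions counted. A thresholded summit lay in the gene body or within 5 kb of it for 29 of the 95 genes (30.5%), against 40.1% of all protein-coding genes. It lay within 500 bp of a start for 2 genes, Cpr50Ca and Cpr49Ah (2.11%), against 13.2%. It lay inside the gene body for 4 genes, Cpr62Ba, Cpr73D, Cpr76Bc and Cpr97Ea (4.21%), against 14.0%. These are descriptions of 1 group without a test. Neither the number of annotated starts nor the gene length was matched between the cuticle protein genes and all protein-coding genes in these shares. By length, 19 of the 47 longer members and 10 of the 48 shorter ones had a peak within 5 kb.

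The lists that were not thresholded gave mixed shares. A pooled summit lay within 5 kb of 50 cuticle protein genes (52.6%), against 58.7% of all protein-coding genes, and within 500 bp of a start for 14 (14.7%), against 24.6%. Replicate 2 had a summit within 5 kb of 46 (48.4%), against 63.9%, and replicate 4 of 60 (63.2%), against 60.2%, so replicate 2 was below and replicate 4 slightly above the background share. Both replicates had one at 43 genes, replicate 2 alone at 3, replicate 4 alone at 17 and neither at 32. No list had a summit near 32 cuticle protein genes (33.7%), against 29.8% of all protein-coding genes.

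**Figure D1:**
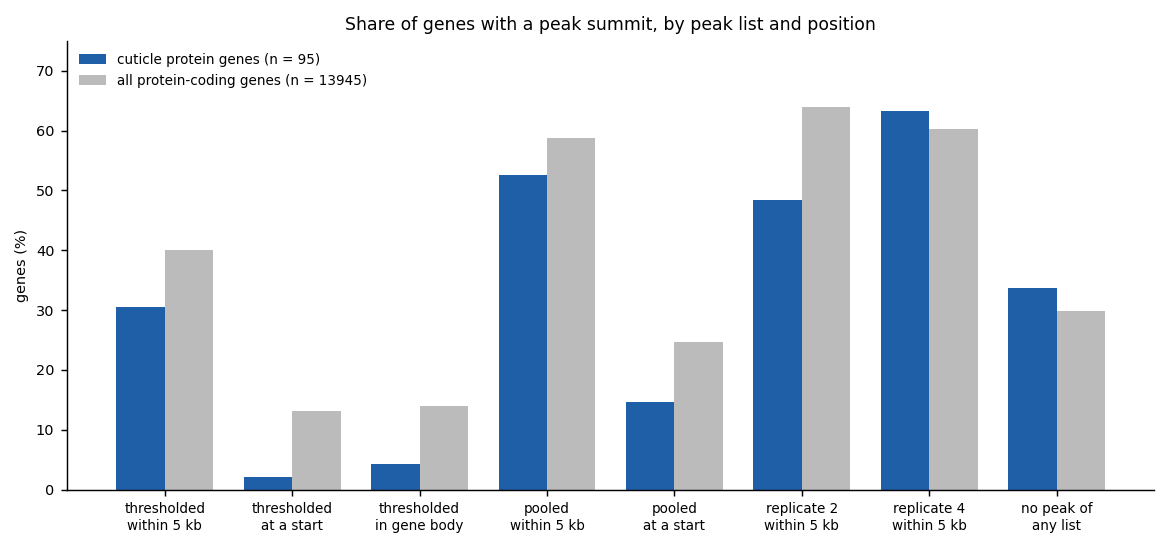
Share of genes (%) with a peak summit, for the 95 cuticle protein genes (blue) and all 13945 protein-coding genes (grey), by peak list and by position (in the gene body or within 5 kb, within 500 bp of a start, or in the gene body). The blue bars are lower for thresholded peaks at a start (2.11% and 13.2%) and higher for replicate 4 within 5 kb (63.2% and 60.2%).

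Because short genes have short windows, peaks were also counted per length of the merged windows. The windows of cuticle protein genes, 665 kb in all, held 25 separate thresholded peaks, or 3.76 per 100 kb, against 6.10 in the windows of all protein-coding genes, a ratio of 0.617. For pooled peaks the density was 22.0 per 100 kb, against 23.7 (ratio 0.926), for replicate 2 it was 25.3 against 24.2 (1.04), and for replicate 4 it was 19.0 against 23.6 (0.802). By density, replicate 2 thus lay slightly above and replicate 4 below all protein-coding windows, the reverse of their shares of genes. For every 100 pooled peaks 17.1 thresholded peaks were counted near cuticle protein genes and 25.7 near all protein-coding genes. The 25 peaks were of ordinary strength, with a median signal value of 216 against 252 for all thresholded peaks; 10 exceeded that median and 1 was among the strongest 10%.

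Of the 5 strongest of these peaks, 4 had the start of a gene other than a cuticle protein gene as their nearest. The strongest, with a signal value of 1302 (580 in replicate 2 and 726 in replicate 4), lay 3993 bp downstream of the start of Cpr78Cc and 85 bp downstream of that of CG11309 (chromosome 3L, 21304385 to 21304736). The next, at 607 (198 in replicate 2 and 407 in replicate 4), lay 3234 bp downstream of the start of Cpr31A inside an intron of Pen, an importin alpha gene (chromosome 2L, 10057305 to 10057581). The third, at 435 (310 in replicate 2 and 127 in replicate 4), lay within 5 kb of Cpr65Ay, Lcp65Aa and Cpr65Ax2 and 110 bp upstream of lncRNA:CR45421 (chromosome 3L, 6155187 to 6155428). A peak near Cpr57A, at 358 (222 in replicate 2 and 150 in replicate 4), lay 110 bp upstream of CG30148 (chromosome 2R, 20547587 to 20547923). In all, 8 of the 25 peaks had the start of another protein-coding gene as their nearest, 4 of them within 500 bp of it, and their median signal value was 326. They include the only thresholded peaks of 8 members: Cpr31A, Cpr57A, Cpr65Ax2, Lcp65Aa, Cpr65Ay, Cpr65Az, Cpr65Ec and Cpr78Cc.

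The other 17 peaks had a cuticle protein gene as their nearest protein-coding start, at 15 genes, and were weaker, with signal values of 141 to 411 and a median of 210. Of these, 13 lay upstream of the start at 321 to 3163 bp (median 723 bp), 11 of them by more than 500 bp, and 4 lay downstream.
The strongest was at Cpr50Ca, one of the longest members, 321 bp upstream of its start (chromosome 2R, 13769475 to 13769680), with a signal value of 411. A replicate 2 peak of 264 matched it, and a replicate 4 peak of 143 overlapped it without sharing 50% of both lengths. Cpr49Ah had 2 overlapping peaks, with summits 635 and 435 bp upstream (chromosome 2R, 12413102 to 12413551 and 12413401 to 12413616). The first had a signal value of 356 (150 in replicate 2 and 210 in replicate 4) and the second 180 (98.6 in replicate 2 and 70.3 in replicate 4). The Cpr50Ca peak and the second Cpr49Ah peak are the thresholded peaks within 500 bp of a cuticle protein start.

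Further upstream, the peak of Cpr62Bc, whose sequence is printed above, lay 2677 bp before the start (chromosome 3L, 1844688 to 1844911) with a signal value of 338 (202 in replicate 2 and 136 in replicate 4). Cpr66Cb had peaks of 299 and 216 at 2894 and 2107 bp upstream (chromosome 3L, 8333703 to 8333918 and 8334392 to 8334589). Replicate 2 had matching peaks of 219 and 205 there, and replicate 4 had none, its nearest summits being 13498 and 14285 bp away. Cpr51A had a peak of 223 at 3163 bp upstream (106 in replicate 2 and 110 in replicate 4; chromosome 2R, 14518149 to 14518598). Cpr100A had one of 182 at 2883 bp upstream (45.9 in replicate 2 and 138 in replicate 4; chromosome 3R, 30864413 to 30864862), besides one of 294 that lay 569 bp upstream of CG15545 (chromosome 3R, 30872840 to 30872978; overlapping peaks of 176 in replicate 2 and 134 in replicate 4). The peaks of Cpr97Eb, Cpr72Eb, Cpr64Aa and Cpr64Ac lay 580, 552, 723 and 712 bp upstream, with signal values of 187, 192, 219 and 144.

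Inside gene bodies, 5 peaks were found in 4 members. That of Cpr62Ba, with a signal value of 264, lay in an intron 820 bp upstream of an internal start (chromosome 3L, 1829648 to 1829782), and overlapping peaks had 130 in replicate 2 and 114 in replicate 4. That of Cpr76Bc, at 210, was intronic, 3601 bp past a start (chromosome 3L, 19524851 to 19524984), and replicate 2 had a peak of 176 there while the overlapping replicate 4 peak had 25.4. Cpr97Ea had an intronic peak of 150 at 1703 bp downstream of an internal start (chromosome 3R, 27084691 to 27085140), with 80.6 in replicate 2 and no overlapping peak in replicate 4. Cpr73D, the longest member, had an intronic peak of 147 (69.7 in replicate 2 and 82.9 in replicate 4; chromosome 3L, 16941190 to 16941639) and one of 189 that lay 46 bp upstream of Obp73a, an odorant-binding protein gene whose start lies within it (38.6 in replicate 2 and 141 in replicate 4; chromosome 3L, 16944090 to 16944539). By position, 7 of the 25 peaks were at the start of some gene, 9 intronic and 9 intergenic (36%), against 33.0%, 49.1% and 15.1% of all thresholded peaks.

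**Figure D2:**
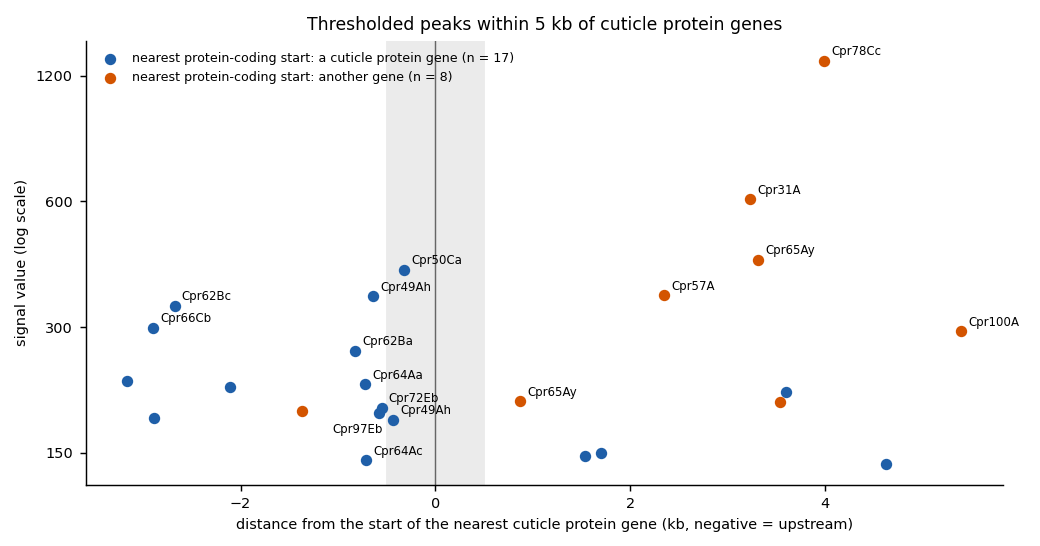
Signal value (log axis) of the 25 thresholded peaks within 5 kb of a cuticle protein gene against the distance in kb from the start of the nearest such gene, with negative values upstream and the shaded band marking 500 bp. Blue points (17) have a cuticle protein gene as the nearest protein-coding start and orange points (8) another gene; the band holds the peaks of Cpr50Ca (411) and Cpr49Ah (180), and the highest point, near Cpr78Cc (1302), is orange.

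Measured from every start, the nearest thresholded summit was a median of 11633 bp away for cuticle protein genes and 9377 bp for all protein-coding genes. The shares were close at 20 kb and apart at shorter distances. Within 2 kb the shares were 13.7% of cuticle protein genes and 22.0% of all, within 10 kb 42.1% and 51.9%, and within 20 kb 71.6% and 73.5%. The farthest member was 65310 bp from one.

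How many of these peaks each library held depended on the matching rule. At 50% of both lengths, 23 of the 25 were matched in replicate 2 and 17 in replicate 4, and 17 in both (68%, exact Clopper-Pearson 95% interval 46.5% to 85.1%), against 75.3% of all thresholded peaks. By any overlap it was 25 in replicate 2 and 22 in replicate 4. The 50% rule cannot match a short peak to a much longer one. In replicate 2 89.0% and in replicate 4 91.1% of peaks were 436 bp long. The peaks of Cpr50Ca, Cpr62Ba, Cpr64Aa and Cpr76Bc, and that of 139 bp near Cpr100A, were 134 to 206 bp long. Replicate 4 had summits 3 to 12 bp from theirs, but none was matched there, so the matched counts partly reflect peak length. Of the 17 matched in both, 11 ranked better in replicate 4 and 6 in replicate 2, and 8 ranked within the strongest 7326 of both. Because the thresholded list was made from these replicate lists, these matches are a description.

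**Figure D3:**
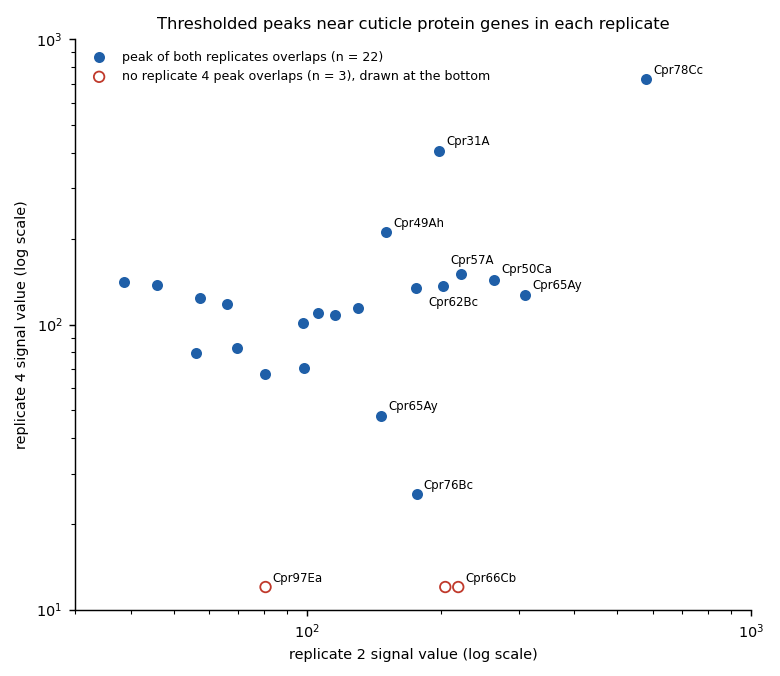
Replicate 4 signal value against replicate 2 signal value (log axes) for the 25 thresholded peaks within 5 kb of a cuticle protein gene, taking the overlapping peak of each replicate. The 22 filled points have an overlapping peak in both, with that near Cpr78Cc highest (580 and 726); the 3 open points at the bottom edge, at Cpr66Cb (2 peaks) and Cpr97Ea, have none in replicate 4.

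At 3 genes 1 replicate had at least 5 peaks and the other none (3.16%), against 1.15% of all protein-coding genes. Cpr66Cb had 14 replicate 2 peaks within 5 kb, with signal values of 19.9 to 219, and 0 in replicate 4, whose nearest summits lay 16392 bp to the left and 19771 bp to the right of the gene. Cpr47Ec and Cpr47Ed shared the opposite pattern, within a cluster where replicate 4 had 5 peaks of 21.2 to 119, replicate 2 had 0 and the pooled list had 1 of 72.8. These neighbours count the same 5 replicate 4 peaks, so they are not separate cases in the 3.16%. The part of library differences in these counts was not tested.

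Seen by cluster, the peaks were spread unevenly, and long stretches of the 65A, 84A and Lcp arrays held none. The 65A cluster on chromosome 3L (6130386 to 6161589) holds 17 cuticle protein genes from Lcp65Ag3 to Cpr65Az, and its 2 thresholded peaks lay at its right end near Cpr65Ay, CG13297 and lncRNA:CR45421. The first 13 genes, Lcp65Ag3 to Lcp65Ab1, are those before the first with a thresholded peak within 5 kb. They spanned 19.6 kb in which no list had a summit. The thresholded summits on each side were 60.5 kb apart. The median between all neighbouring thresholded summits was 4194 bp. This gap was picked for its long run of genes without a peak, so it is not like for like with that median. The 84A cluster on chromosome 3R (6684445 to 6704903), with 8 genes from Edg84A to Ccp84Aa, had 0 thresholded, 0 pooled and 0 replicate 2 peaks. It had 2 replicate 4 peaks, with signal values of 26.2 and 26.4, in a gap of 97.9 kb between thresholded summits. The Lcp1 to Lcp4 cluster on chromosome 2R (8430115 to 8438495) had 0 peaks in each of the 4 lists, and its gap was 89.6 kb for thresholded, 64.1 kb for pooled, 37.8 kb for replicate 2 and 64.4 kb for replicate 4 summits. In the thresholded list, such gaps were not particular to these arrays. Of the clusters described below that had thresholded peaks, the longest thresholded gap was 190 kb at 76B, 116 kb at 49A and 82.9 kb at 65E. Most of each lay outside the cluster, with 182817 bp left of 76B, 114116 bp right of 49A and 72186 bp left of 65E. At Lcp1 to Lcp4, 72008 bp likewise lay to the left. The longest thresholded gap was shorter at 78C (45.2 kb), 64A (39.1 kb), 72E (35.9 kb) and 62B (19.3 kb). In the pooled list the longest gap was 58.4 kb at 65A and 84.9 kb at 84A. It was 41.8 kb at 78C, 27.1 kb at 76B, 27.2 kb at 49A and 4.25 kb at 65E.

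Sequence repeats bear on these counts, since no source used here says how reads from near-identical copies were placed. Stretches of 50 bases were counted as recurring if they occurred again on the main chromosomes, within the same gene body included. Other sequences of the reference were not searched. Of the 95 gene bodies, 78 had no recurring stretch, and in 10 more than 10% of the stretches recurred. They were all of Lcp65Ab2, Cpr65Ax1, Lcp65Ab1 and Cpr65Ax2 (100% each), 61.1% of Lcp65Ag3, 62% of Lcp65Ag2, 70.1% of Lcp65Ag1, 48.8% of Cpr73D, 39.4% of Ccp84Aa and 35.5% of Ccp84Ab. In those gene bodies a lack of peaks and a lack of placed reads cannot be told apart. Among the 32 genes without a peak in any list, 7 were of this kind and 20 had no repeated stretch, such as Pcp, Lcp3, Lcp4 and Lcp65Ac.

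The smaller clusters on chromosome 3L ranged from 3 thresholded peaks to 0. The 64A cluster, 4 genes from Cpr64Aa to Cpr64Ad (4207838 to 4216414), had 3 thresholded peaks with signal values of 219, 144 and 141, or 16.1 per 100 kb, and each of its genes had one within 5 kb. All 3 peaks were intronic and lay inside CG43367, which encloses these genes. The peak of 141 was 4622 bp from the start of Cpr64Ad and 2733 bp from that of asRNA:CR32252. The 62B cluster, Cpr62Ba to Cpr62Bc (1824129 to 1842084), had 2 thresholded peaks but 20 pooled, 20 replicate 2 and 12 replicate 4 peaks, and all 3 genes had a thresholded peak within 5 kb. The 72E cluster, Cpr72Ea to Cpr72Ec (16362603 to 16367340), had 1 thresholded peak, 552 bp upstream of Cpr72Eb, which was within 5 kb of all 3 genes.
The 76B cluster, Cpr76Ba to Cpr76Bd (19517552 to 19538289), had 1 thresholded, 8 pooled, 15 replicate 2 and 5 replicate 4 peaks. The 65E cluster, Cpr65Ea to Cpr65Ec (7086003 to 7093841), had 1 thresholded peak in an intron of form3, a formin gene, and the 67F cluster, Cpr67Fa1 to Cpr67Fb (10889990 to 10894693), had 0 thresholded and 2 peaks in each other list. In the 49A cluster on chromosome 2R, Cpr49Aa to Cpr49Ah (12376626 to 12415170), both thresholded peaks lay at the last gene, and there were 8 pooled, 7 replicate 2 and 12 replicate 4 peaks. The 47E cluster, Cpr47Ea to Cpr47Eg (chromosome 2R, 11251751 to 11278445), had 0 thresholded peaks. In all, 20 of the 68 clustered genes and 9 of the 27 others had a thresholded peak within 5 kb, and none of the 4 members on chromosome X did.

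**Figure D4:**
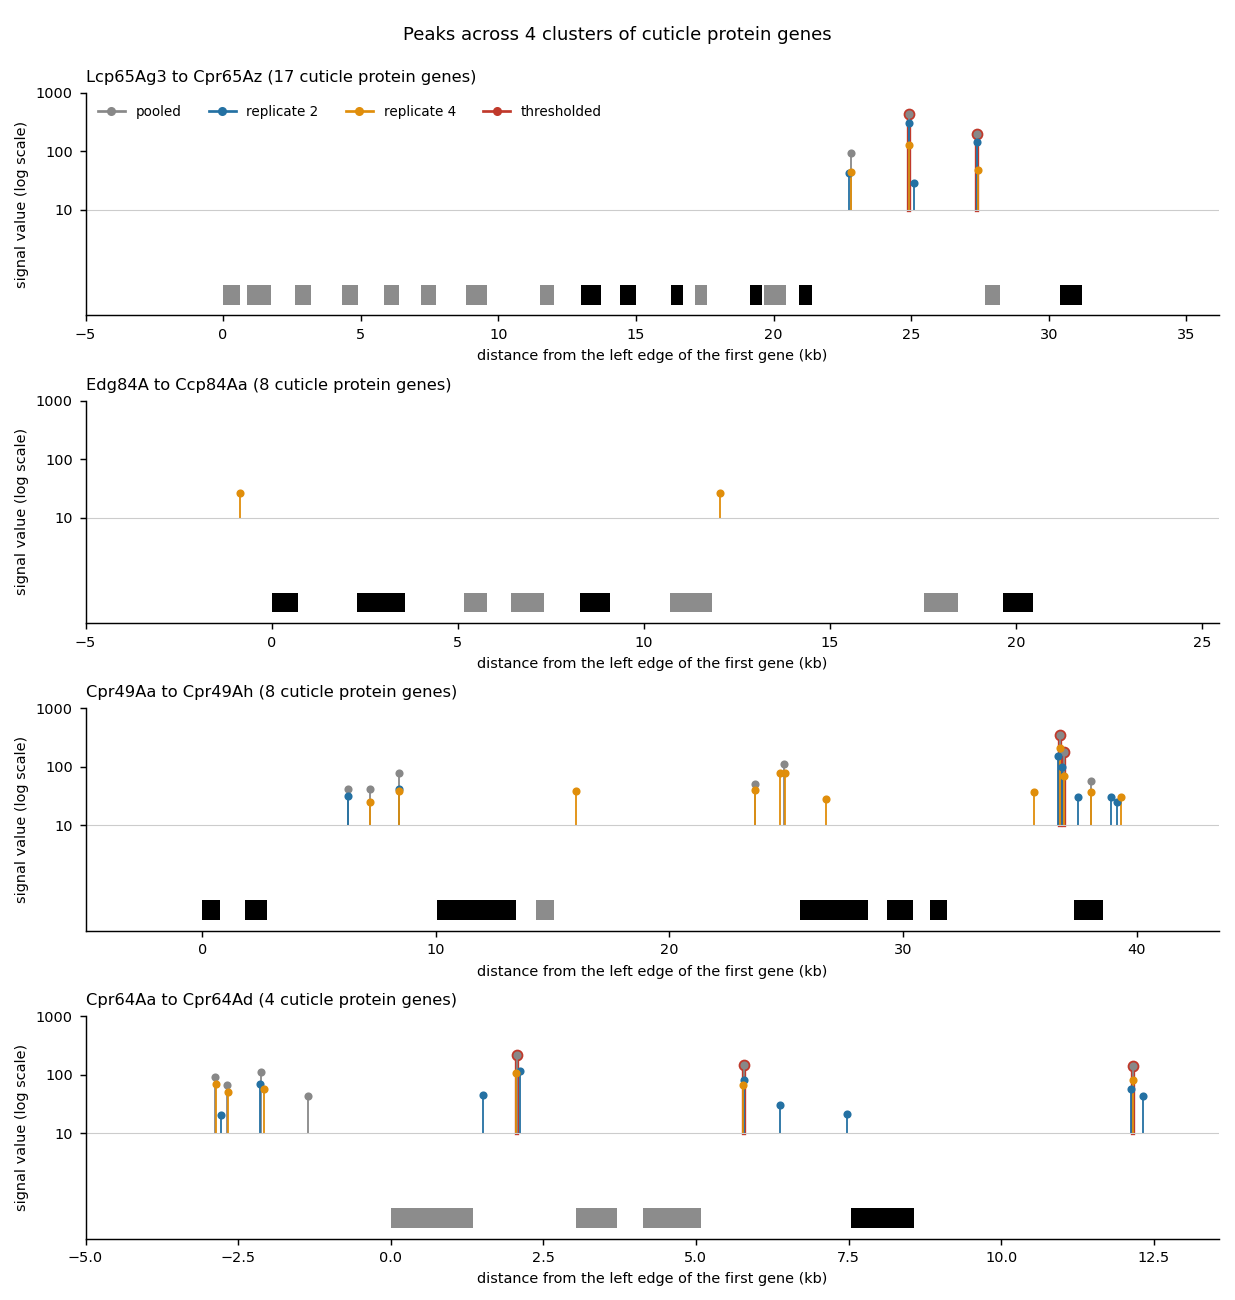
Peaks of 4 clusters by distance in kb from the left edge of the first gene, with stems giving the signal value on a log axis from 10 and red rings marking thresholded peaks; boxes are cuticle protein genes, black on the plus and grey on the minus strand. The first 13 genes of the 65A cluster have no stem, the 84A cluster has 2 replicate 4 stems near 26, and the 64A cluster has 3 thresholded peaks of 219, 144 and 141.

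**Figure D5:**
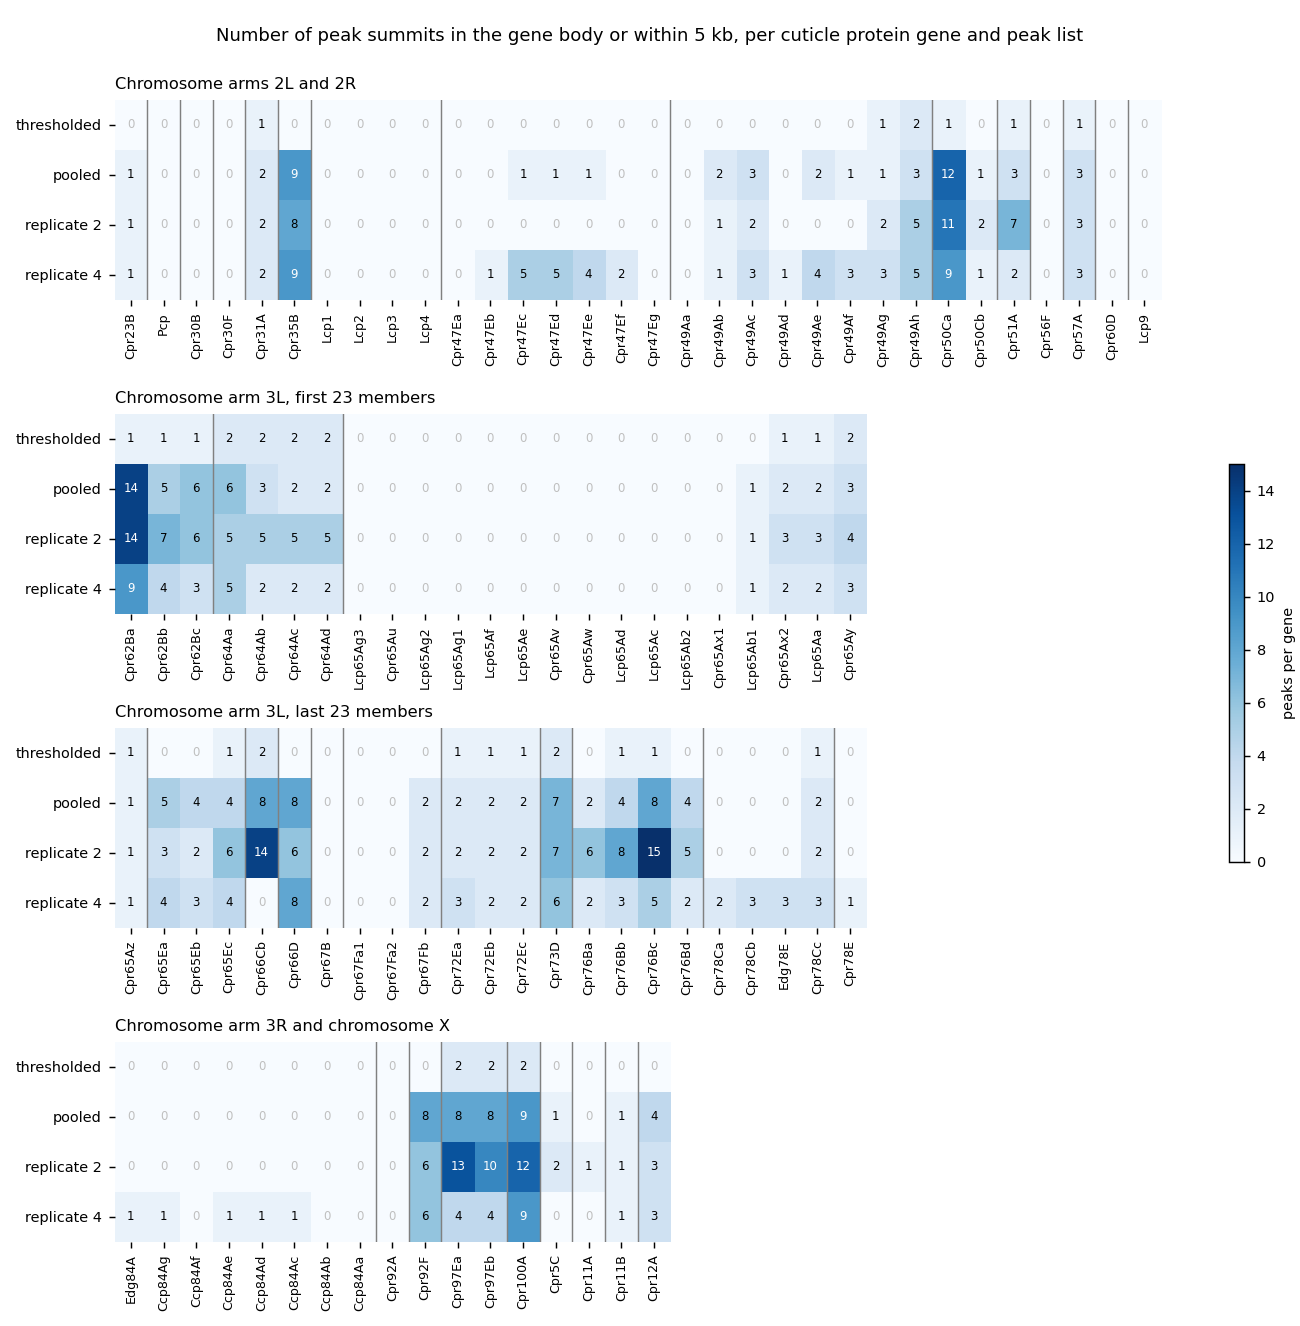
Number of peak summits in the gene body or within 5 kb for each of the 95 cuticle protein genes, in the 4 peak lists, in chromosome order; vertical lines separate clusters, pairs and single genes, and darker blue means more peaks. Thresholded counts reach 2, pooled counts 14 (Cpr62Ba), replicate 2 counts 15 (Cpr76Bc) and replicate 4 counts 9; Cpr66Cb has 14 and 0 in replicates 2 and 4.

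Of the long-studied members Lcp1 to Lcp4, Lcp9, Edg78E, Edg84A, Pcp and Ccp84Aa, none had a thresholded peak within 5 kb, and neither had 66 of all 95 cuticle protein genes. Edg78E, in the 78C cluster from Cpr78Ca to Cpr78Cc (chromosome 3L, 21291860 to 21301171), had 3 replicate 4 peaks within 5 kb and none in the other lists, and its nearest thresholded summit was 6770 bp upstream. For Edg84A the nearest was 19309 bp upstream and for Ccp84Aa 38948 bp upstream. Pcp (chromosome 2L, 7021682 to 7022470) had its nearest thresholded and pooled summit 11397 bp upstream, and Lcp9 (chromosome 2R, 24779979 to 24780428) its nearest thresholded summit 13237 bp upstream.

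Weaker, pooled peaks did reach the starts of some members. The strongest outside the thresholded list were at Cpr51A (signal value 118, 252 bp upstream), Cpr66Cb (109, 351 bp upstream), Cpr97Ea (94.8, 203 bp upstream), Cpr62Ba (92.4, 375 bp downstream) and Cpr66D (89.3, 166 bp upstream). Replicate 2 had matching peaks of 91.8, 95.5, 50.1, 49.2 and 54.8 at these 5 places, in the same order. Replicate 4 had a match only at Cpr97Ea (34.9) and Cpr66D (20.3), and none at the other three. Of the genes without a thresholded peak, Cpr35B had 9 pooled peaks (35.4 to 93.8), Cpr92F 8 (45.6 to 64.1), Cpr66D 8 (48.7 to 123) and Cpr65Ea 5. The second longest gene, Cpr50Ca, had 12 pooled peaks and the third longest, Cpr50Cb, 1.

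TATAAA at 36 to 24 bases before the start was counted by cluster. It was found in 10 of 17 genes of the 65A cluster, 6 of 8 in the 84A cluster and 3 of 3 in the 65E cluster, and in 0 of 3 in the 62B cluster and 1 of 4 each in the 64A and 76B clusters. In Cpr62Bc, Cpr64Ad and Lcp65Ac it began 23, 22 and 22 bases before the start, just outside this range, so the counts by cluster depend on the range. None of the 48 cuticle protein genes with TATAAA at this place had a thresholded promoter peak, and 2 of the 47 without it did (4.26%). Among the other protein-coding genes it was 66 of 887 with TATAAA (7.44%) and 13.7% of the 12963 without. Promoter peaks were counted at any annotated start but TATAAA only at the most upstream one. In genes with several starts, the peak and the TATAAA can thus lie at different promoters. Over the whole 300 bases TATAAA was found on the gene strand of 72.6% of cuticle promoters and 32.1% of all protein-coding promoters. TCAGT, the core of the initiator, was found in 38.9% and 36.1%, but with its first base within 4 bases of the start in 6.32% and 10.1%. CAGTG on either strand was found in 33.7% and 46.2%. GAGAG was found in 31.6% of cuticle promoters and 29.7% of all, GATAAG in 6.32% and 18.9%, and TATCGATA in 1.05% and 9.36%. AACCGGTT was found in none and in 0.753%.

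Other genes that act in making cuticle gave different counts, from lists drawn up with earlier results of these data known; for all protein-coding genes the values were 40.1% within 5 kb, 13.2% at a start and 6.10 peaks per 100 kb. Of 25 genes of the Tweedle family, cuticle proteins without the Rebers-Riddiford consensus, 2 had a thresholded peak within 5 kb (8%) and 0 at a start. These were TwdlC, at 329 (181 in replicate 2 and 147 in replicate 4), and TwdlE, at 216 (93 in replicate 2 and 134 in replicate 4), while TwdlB and TwdlD had none. Their windows held 1.40 thresholded peaks per 100 kb. The list for chitin synthesis and assembly has 24 genes and also holds chitinase (Cht) and Idgf genes. Of these 24, 19 had a thresholded peak within 5 kb (79.2%) and 8 at a start (33.3%). Their windows held 5.97 per 100 kb, and their median length was 4758 bp. Neighbouring genes share peaks here: Idgf1, Idgf2 and Idgf3 count 1 peak, and serp and verm another. The strongest within 5 kb were near the chitinase gene Cht7 (900), obst-A, for a chitin-binding protein (542), mmy, for the enzyme that makes the chitin precursor (520), and knk, for a chitin-organising protein (513). Those of Cht7 and mmy lay at a start of the gene. Those of obst-A and knk lay outside the gene body, and neither gene had a peak at a start. The obst-A peak had 477 in replicate 2 and 64.0 in replicate 4. For these lists the nearest start of any gene was not looked up. The other 5 genes of this list had no peak within 5 kb, Cda9 and Cht10 among them.

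Of 15 genes for tanning and melanin, 5 had a thresholded peak within 5 kb (33.3%) and 3 at a start (20%), at 3.92 per 100 kb. By the strongest peak within 5 kb they were led by speck, for an arylalkylamine N-acetyltransferase (2967), PPO3, for a prophenoloxidase (1368), yellow-e (253) and t, for the hydrolase tan (211). The peaks of 2967 and 1368 were not at a start, where the strongest had 237 at speck and 288 at PPO3. Ddc, for dopa decarboxylase, and PPO1 had none. Of 17 regulators of cuticle timing, 14 had one within 5 kb (82.4%) and 9 at a start (52.9%), at 16.1 per 100 kb, but their median length was 31127 bp. The strongest within 5 kb lay in or near the nuclear receptor genes Hr4 (1657) and Eip75B (1489), CrebA, for a bZIP factor of secretory genes (1368), and grh, for Grainy head (1210). The CrebA peak of 1368 lay outside the gene body. At a start, the strongest had 238 at Hr4, 1124 at Eip75B, 517 at CrebA and 552 at grh. The gene ftz-f1 itself, looked up after values were seen, had 15 thresholded peaks within 5 kb with a highest signal value of 845 (493 in replicate 2 and 367 in replicate 4), while Burs, rib and rk had none. The lists differ in gene length and were not tested against each other or against the cuticle protein genes.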

How the data were processed

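The deposited peak lists, per the deposited documentation, were made from each replicate's alignment with 1 further file not described there, from both alignments (pooled), and from these lists by the IDR procedure (thresholded). No source used here names the aligner, peak caller, IDR threshold or depth. The lists have no header line. The deposited signal value is a score of the authors' peak caller with no stated unit. The deposited −log10 q-value is capped (highest 3.89 in the thresholded list) and was not used to rank peaks. Positions are dm6 and 1-based; the dm3 lists were not used. The largest peak end lay within the length of each Release 6 chromosome, so gene models (Ensembl release 115, BDGP6.54) and sequence (RefSeq Release 6) of that build were used.

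Summits were assigned to gene bodies extended by 5 kb, and to starts within 500 bp. Peaks of different lists were matched at 50% of both lengths, with Python 3.11.15, numpy 2.4.6 and pandas 2.3.3. The counting steps were tested on simulated data and passed 8 of 8 checks. With 1 group and no control, no test was run. The genes, the lists and the alternatives were chosen with earlier results of these data known. Named genes are members with a thresholded peak at a start or in the gene body, those of the 10 strongest peaks, and those of the 5 strongest pooled peaks at starts. The long-studied members, the ends of each cluster, the 5 longest members and the neighbours nearest to those peaks are also named. Of each other list, up to 4 genes with a thresholded peak within 5 kb and 2 without are named. Other members named, and the repeat count, were chosen after values were seen. The symbols AANAT1 and hnt did not match the annotation.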

Additional observations from a re-analysis of the deposited data

How the results depend on the processing

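Of 47 recalculated values, 29 stayed within 1.5 times of the reported one or within its interval and 18 moved. Within 1 kb of the gene body, 14 cuticle protein genes had a thresholded peak (all protein-coding genes 22.8%), from 14 separate peaks, 11 of them nearest to a cuticle protein start, and 28 had a pooled peak (36.9%). Within 2 kb it was 17 genes (27.9%), 15 peaks and 11 nearest. With the stronger 50% of the thresholded peaks it was 14 genes (29.1%), 10 peaks and 5 nearest, and 1 gene with a promoter peak (8.06%). Promoter peaks were at 0 genes within 250 bp (9.21%), at 8 within 1 kb (16.9%) and at 5 when any base of the peak counted (14.9%). The share of peaks matched in both replicates was 88% with 1 bp of overlap, 40% with 80% of both lengths and 32% among the strongest peaks of each replicate only. The density ratio ranged from 0.487 to 0.706 over its alternatives, below 1 in each.

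With 1 replicate left out, the 7326 strongest peaks of the other stood in for the thresholded list. Genes with a peak within 5 kb then numbered 29 to 31, separate peaks 24 to 29, peaks nearest to a cuticle protein start 16 to 20, and the density ratio was 0.595 to 0.706. Genes with a promoter peak numbered 2 without replicate 2 (12.9% of all protein-coding genes) and 4 without replicate 4 (15.5%). Genes with a pooled peak numbered 46 without replicate 4 (48.4%, against 63.9% of all protein-coding genes) and 60 without replicate 2 (63.2%, against 60.2%), so the share without replicate 2 lay above that of all genes instead of below it. The longest run without a peak was 13. No paired analysis was possible because the 2 libraries form 1 group and no test was run. Depth is unknown, so no limit on undetected peaks can be given; the peaks of fixed-length replicate lists depend on the strength of all others in the library.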
